A study of Mus musculus with 35 samples.

Results

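The livers of 5 mice given 20 mg/kg of the silica particle SP70 were compared with those of 5 mice given 200 mg/kg of the larger silica particle SP300, 10 of the 35 arrays of the series. Both sets were chosen by their titles alone. All mice were BALB/c, were assigned to their groups at random and were killed 6 h after 1 intravenous injection. RNA came from the left lateral lobe, with 1 array per mouse. The 5 control mice received deionized water at 0.1 ml per 10 g. In the series' design text, 200 mg/kg is the toxic dose of SP300, while that of SP70 is 40 mg/kg, so that the SP70 mice here received less than the dose named as toxic. Size and dose differ together between the sets, and their parts in any difference cannot be told apart. The labels give neither the age nor the sex of the mice, nor the diameter of the particles.

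Particles in the blood are taken up in the liver mainly by Kupffer cells, the macrophages that line the sinusoids. Pattern receptors such as TLR2, with CD14 as a helper, signal to NF-kB, which turns on chemokines, cytokines and adhesion molecules. Interferons act through STAT2 and IRF9 on a DNA element called ISRE, and unfolded protein in the endoplasmic reticulum (ER) acts through ATF6 and XBP1 on an element called ERSE. The liver is a bulk sample, so fewer cells of a type and less RNA per cell cannot be told apart.

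The values are MAS5 signals on a linear scale, and each log2 difference below is SP70 20 mg/kg minus SP300 200 mg/kg on the scale of log2(signal + 12.5), which understates the change of dim genes. Adjusted p-values are from limma with the Benjamini-Hochberg method over all 12678 genes tested, and a gene with an adjusted p under 0.05 is said to be called. Array medians were 169 to 180 in the SP70 mice and 151 to 166 in the SP300 mice and did not overlap (exact permutation test, two-sided p = 0.00794, the smallest that 5 against 5 mice can give). The added control RNA dap, read at its 5' end, gave 965 to 1242 in the SP70 mice and 213 to 491 in the SP300 mice, beside 643 to 1002 in controls. In a further group of the series, given SP300 at 10 mg/kg, it gave 341 to 482, so it was low at both SP300 doses. The log2 ratio of the 3' to the 5' actin probe sets was 1.01 to 1.20 against 0.733 to 0.983, whereas that of Gapdh overlapped. For actin, the SP300 10 mg/kg group gave 0.885 to 1.12. The labels name no batch, these readings follow the groups, and their part in the results was not tested. Arrays within a set correlated at 0.971 to 0.975 for SP70 and 0.968 to 0.975 for SP300.

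Of the 12678 genes, 828 (6.53%) were called. Of these, 598 (4.72%) were higher after SP70 20 mg/kg and 230 (1.81%) were lower. The 5 mice of each set did not overlap for 1050 genes (8.28%), 735 of them (5.80%) higher after SP70 and 315 (2.48%) lower. The median size of a called difference was 0.52 in log2, and 80 higher and 18 lower genes differed at least 2-fold. Against control, 5020 genes (39.6%) were called for SP70 20 mg/kg and 3879 (30.6%) for SP300 200 mg/kg. These 2 comparisons share the control mice, so their values are only set side by side below.

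**Figure D1:**
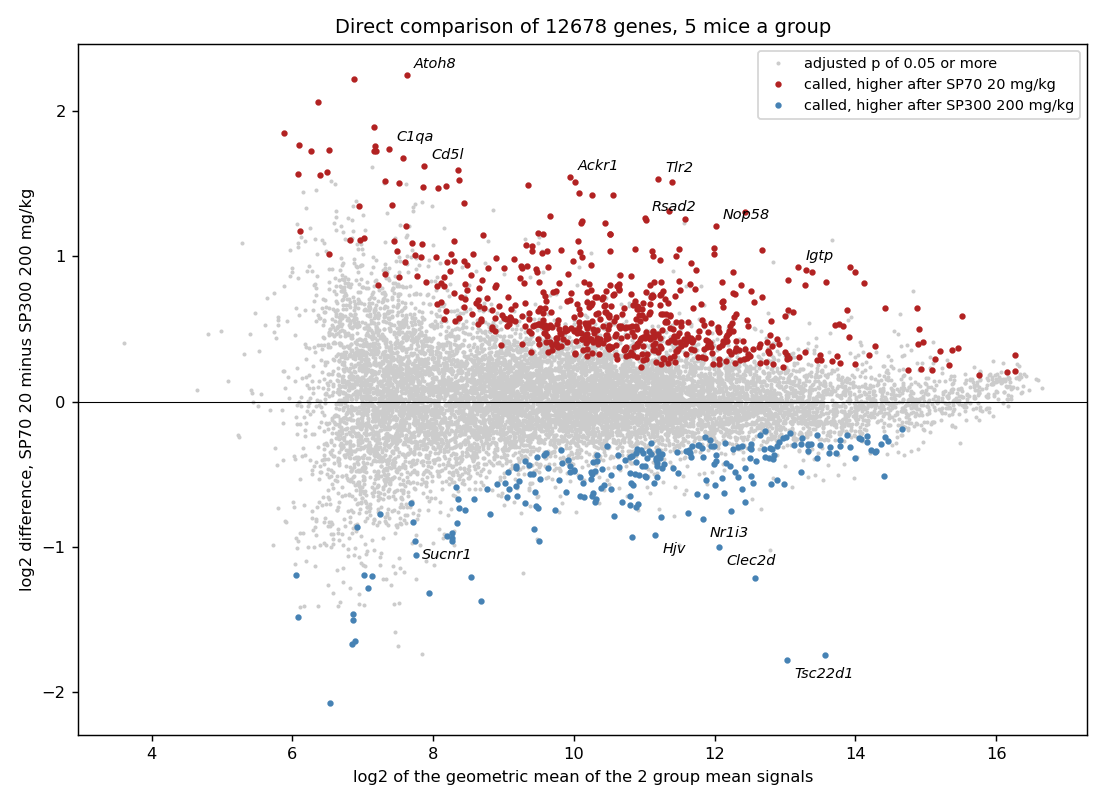
Each point is 1 of 12678 genes, with the log2 of the geometric mean of the 2 group mean signals on the horizontal axis and the log2 difference between the groups (5 mice each) on the vertical axis. Red points are the 598 genes called higher after SP70 20 mg/kg, blue points the 230 called higher after SP300 200 mg/kg, and grey points the rest.

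The direction of this split depended on how the arrays were scaled. As deposited, 72.2% of the called genes were higher after SP70. After quantile normalization 1297 genes were called, 450 (3.55% of all genes) higher and 847 (6.68%) lower, so that 34.7% of the calls were higher, and after centring every array at its own median 1862 were called, 347 (2.74%) higher and 1515 (11.9%) lower, or 18.6% of them higher. The median difference over all genes moved from 0.03 to -0.07 and -0.12. Genes called in the same direction under all 3 scalings numbered 327 higher and 230 lower, so every gene called lower in the deposited values was also called lower under both other scalings. Both of these scalings moved the differences downward as a whole. That the lower genes kept their calls was therefore favoured in advance and is no separate support for them. Of the 81 called genes named below, 75 were called after quantile normalization and 70 with centred arrays. The exceptions are given with their groups, and 53 of the 81 kept their call whichever of the 15 mice (controls included) was left out.

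**Figure D2:**
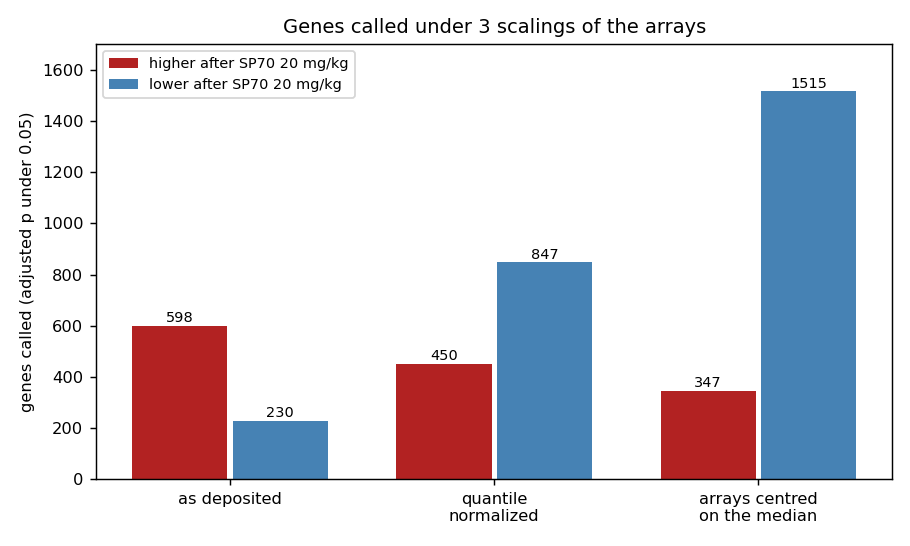
Bars give the number of genes with an adjusted p under 0.05 (limma, 5 mice a group) that were higher (red) or lower (blue) after SP70 20 mg/kg, for the deposited values and 2 other scalings. Higher genes go from 598 to 450 and 347 and lower genes from 230 to 847 and 1515.

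Most Kupffer cell markers fell against control in both sets, and 7 were lower after SP300 200 mg/kg than after SP70 20 mg/kg. Of 19 markers tested, 15 fell against control after SP70 20 mg/kg and 17 after SP300 200 mg/kg, where 20.9% and 18.0% of all genes fell. The summed signal of the 19 was 52711 to 73566 in controls, 17440 to 22037 after SP70 and 15379 to 18244 after SP300, so the sums of the 2 treated sets overlapped. In the direct comparison 7 of the 19 were called, all higher after SP70 (4.72% of all genes were), with a list median of 0.52 beside 0.03 over all genes. With centred arrays 7 were called as well, and after quantile normalization 6, without Spic.

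C1qa, a chain of the complement protein C1q made by macrophages, gave 499, 318, 322, 289 and 147 in the SP70 mice and 132, 54.7, 89.1, 129 and 34.4 in the SP300 mice. Every SP70 mouse lay above every SP300 mouse, and both sets lay far below the control range of 2869 to 4444. The difference was 1.74 ± 0.41 (SE, n = 5 and 5, adjusted p = 0.00856). All SP300 mice and 1 SP70 mouse were under 165, the level used to filter dim probe sets. With such signals raised to 165 the fold was at least 1.82.

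Cd5l, a scavenger protein secreted by tissue macrophages, read 668, 608, 264, 382 and 236 after SP70 and 141, 56.8, 156, 145 and 135 after SP300, again without overlap. Its difference was 1.62 ± 0.29 (adjusted p = 0.000546, at least 2.40-fold), beside 2182 to 3279 in controls. Csf1r, the receptor for the macrophage growth factor CSF1, read 1550 to 2071 after SP70 and 1051 to 1278 after SP300, all well above the filter level. It was 1.54-fold higher after SP70 (0.62 ± 0.13, adjusted p = 0.00273), and against control it fell by 2.59 in log2 after SP70 and fell by 3.21 after SP300.

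C1qc, a second C1q chain, was called at 1.84 ± 0.35 (adjusted p = 0.00113), but the sets overlapped because 1 SP70 mouse read 16.5 against 151 to 196 in the other 4. Clec4f, a lectin specific to Kupffer cells, was called at 1.73 ± 0.47 (adjusted p = 0.0235), with 19.5 in that same mouse and 178 to 258 in the other 4. Cd68, a lysosomal protein of phagocytes, and Spic, a transcription factor of iron-recycling macrophages, differed by 0.68 ± 0.17 and 0.88 ± 0.25 (adjusted p = 0.016 and 0.0289). All 5 SP300 mice lay under the filter level for C1qc (8.47 to 35.8) and Clec4f (13.6 to 127), and 4 did for Spic. Of the SP70 mice, 2, 1 and 1 lay under it. With such signals raised to that level, the fold was at least 1.05 for C1qc, 1.27 for Clec4f and 1.23 for Spic. No Cd68 signal of either set lay under it, and its fold was 1.62. Leaving out 1 mouse took Clec4f and Spic to adjusted p-values of up to 0.0763 (without SP300 200 mg/kg replicate 3) and 0.0944 (without SP300 200 mg/kg replicate 1). They kept the call in 10 and 7 of 15 such fits.

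Other Kupffer cell markers were not called between the sets. Timd4, which binds dying cells, was at most 31.2 in all 10 mice against 333 to 519 in controls, and Cd163, the haemoglobin scavenger receptor, was at most 72.8 against 1073 to 1776. Vsig4, a complement receptor, differed by 1.34 with a 95% interval from 0.39 to 2.28 and missed the threshold (adjusted p = 0.0793). Adgre1, which encodes F4/80, differed by 0.03 (interval -0.32 to 0.38) and Fcna, a ficolin, by 0.21 (interval -0.16 to 0.59).

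**Figure D3:**
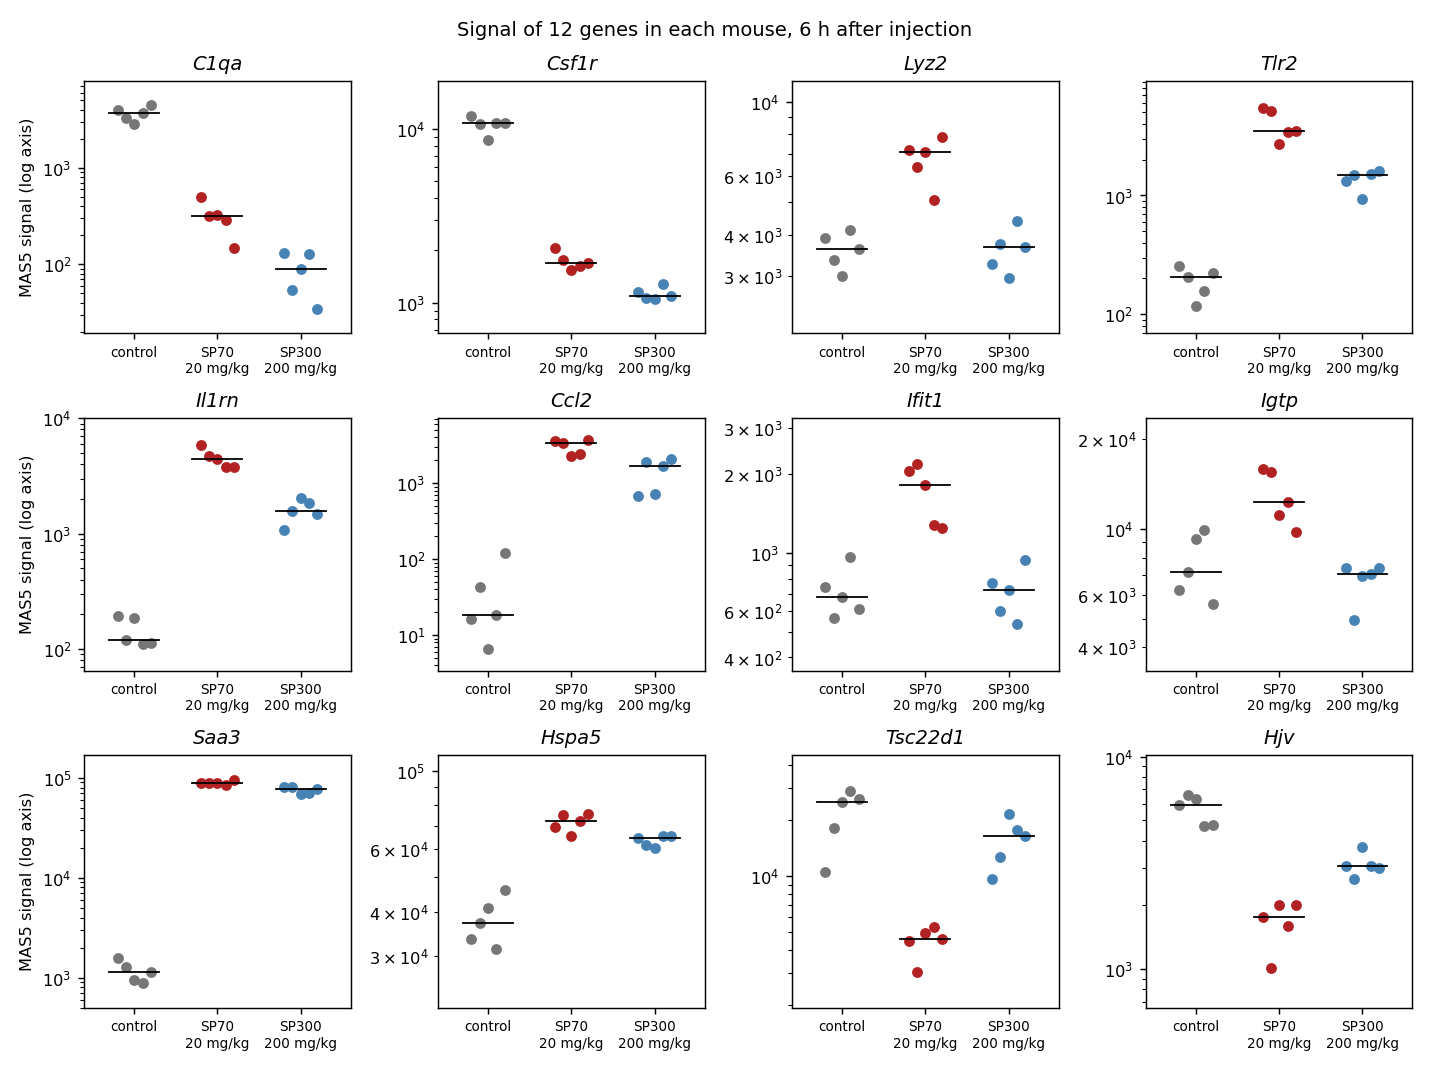
Each point is the MAS5 signal of 1 mouse on a log axis, for 12 genes in 5 control mice (grey), 5 mice given SP70 20 mg/kg (red) and 5 given SP300 200 mg/kg (blue), and the bar is the median. C1qa and Csf1r lie below controls in both treated sets and lowest after SP300, Ifit1 lies above controls after SP70 and beside them after SP300, and Saa3 and Hspa5 lie well above controls in both.

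Of 10 monocyte markers 4 were called, all higher after SP70 20 mg/kg (4.72% of all genes were), also under both other scalings. The summed signal of the 10 was 14522 to 18152 after SP70 against 8892 to 11785 after SP300 and 6095 to 8320 in controls. Lyz2, the lysozyme of myeloid cells, read 7185, 6391, 7056, 5080 and 7858 after SP70 and 3267, 3756, 2972, 4401 and 3672 after SP300. The SP300 mice lay within or beside the control range of 3006 to 4131, and all SP70 mice lay above it. The difference was 0.89 ± 0.17 (adjusted p = 0.00131), and the near-identical Lyz1 may share its probes.

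F13a1, a coagulation factor subunit made by monocytes, was 103 to 151 in controls, 634 to 882 after SP300 and 1081 to 1367 after SP70 (0.70 ± 0.16, adjusted p = 0.00635). Itgam, the integrin CD11b, read 200 to 342 after SP70 and 42.4 to 133 after SP300 (1.52 ± 0.37, adjusted p = 0.00973), with every SP300 and control mouse under 165. Ms4a6c differed by 0.75 ± 0.20 (adjusted p = 0.0166, up to 0.0638 without SP300 200 mg/kg replicate 3).

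No neutrophil marker separated the sets by the test. Of 14, 0 were called between them by limma (3 had an unadjusted p under 0.05), with a list median of 0.28, although 9 and 7 of them rose against control, where 18.7% and 12.6% of all genes rose. S100a8, a calcium-binding protein abundant in neutrophils, read 10122 to 14984 after SP70 and 5357 to 12483 after SP300, against 345 to 1128 in controls. Its difference was 0.54 with an interval from 0.07 to 1.02 (adjusted p = 0.161). S100a9, its partner, differed by 0.61 (0.11 to 1.12) and Clec4d, a neutrophil and monocyte lectin, by -0.17 (-0.75 to 0.40). None of the 24 sinusoidal endothelial markers was called in the deposited values (1 had an unadjusted p under 0.05), and 1 was lower under either other scaling, and Kdr, the VEGF receptor, differed by 0.19 (-0.24 to 0.62).

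Tlr2, a receptor for bacterial lipoproteins, read 5421, 5135, 2707, 3442 and 3514 after SP70 and 1312, 1479, 942, 1514 and 1598 after SP300, with controls at 117 to 254. The lowest SP70 mouse was well above the highest SP300 mouse. The difference was 1.53 ± 0.20, a 2.90-fold higher signal (adjusted p = 4.92e-05), and leaving out any mouse kept the adjusted p at or under 0.00044.

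Of 24 scavenger and phagocytic receptors 4 were called, all higher after SP70, where 4.72% of all genes were called higher. Their list median was 0.16, and with centred arrays 2 were higher and 1 lower. Clec7a, the beta-glucan receptor Dectin-1, read 665 to 1339 after SP70 and 380 to 726 after SP300 (1.02 ± 0.20, adjusted p = 0.00134). Olr1, a receptor for oxidised lipoprotein, differed by 1.77 ± 0.44 (adjusted p = 0.0117) without overlap, but 4 SP70 mice and all SP300 mice lay under 165, so that no fold is given. Cd14 read 12721 to 22645 after SP70 and 6111 to 15140 after SP300 (0.82 ± 0.26, adjusted p = 0.0459), from 252 to 486 in controls. Msr1, the class A scavenger receptor, differed by 0.49 ± 0.15 (adjusted p = 0.047). Cd14 and Msr1 had adjusted p-values of 0.054 and 0.0971 with centred arrays (Msr1 0.0853 after quantile normalization), and up to 0.138 (without SP70 20 mg/kg replicate 4) and 0.115 (without SP300 200 mg/kg replicate 1) with a mouse left out. Olr1 reached 0.0515 without SP300 200 mg/kg replicate 1.

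Of 19 NF-kB subunits, inhibitors and targets, 7 were called, all higher after SP70 (4.72% of all genes were) and with the same count of 7 under each scaling. Tlr2, above, is one of them, and the list median was 0.49. Nfkbie, an inhibitor that NF-kB itself induces, read 2429, 2163, 2160, 1990 and 1821 after SP70 and 1090, 1395, 981, 1290 and 1277 after SP300. The sets did not overlap, and controls lay at 411 to 579. It was 1.76-fold higher (0.81 ± 0.15, adjusted p = 0.000743).

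Nfkbib, another inhibitor, differed by 0.49 ± 0.09 (adjusted p = 0.001) and Rela, the p65 subunit, by 0.42 ± 0.09 (adjusted p = 0.00554), both without overlap. Vcam1, an endothelial adhesion molecule for leukocytes, read 1121 to 1985 after SP70 and 591 to 1048 after SP300 (1.03 ± 0.22, adjusted p = 0.00298). Controls read 775 to 1852, so Vcam1 had fallen after SP300 (by 0.59) and did not pass the test against control after SP70. Icam1, a second adhesion molecule, and Tnip1, a brake on NF-kB, differed by 0.69 ± 0.20 and 0.51 ± 0.14 (adjusted p = 0.028 and 0.0211), with up to 0.123 and 0.0629 without SP300 200 mg/kg replicate 1. Nfkbiz, an NF-kB cofactor that rose by 2.91 and 2.89 against control, differed by 0.02 (-0.48 to 0.52).

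Of 21 chemokines 3 were called, all higher after SP70, where 4.72% of all genes were called higher. Ccl2, which draws monocytes, read 3588, 3364, 2313, 2429 and 3730 after SP70 and 683, 1884, 725, 1678 and 2069 after SP300, against at most 119 in controls. The sets did not overlap, and the signal was 2.39-fold higher (1.25 ± 0.34, adjusted p = 0.0246). Ccl7, a second monocyte attractant, differed by 1.11 ± 0.31 (adjusted p = 0.0269). Ccl20, which draws cells with CCR6, differed by 1.50 ± 0.45 (adjusted p = 0.0355). The sets overlapped for Ccl7 and for Ccl20. For Ccl20, 1 SP70 mouse read 30.4, below every SP300 mouse (53.9 to 143). That mouse and all 5 SP300 mice lay under the filter level for Ccl20, as did 2 SP300 mice for Ccl7. With such signals raised to that level, the fold was at least 2.13 for Ccl20 and 2.01 for Ccl7. Each of the 3 lost its call without some mice, at up to 0.0965 for Ccl2 (without SP300 200 mg/kg replicate 1), 0.104 for Ccl7 (without SP300 200 mg/kg replicate 3) and 0.117 for Ccl20 (without SP70 20 mg/kg replicate 1).

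The attractants of neutrophils did not pass the test between the sets. Cxcl1 read 17851 to 43963 after SP70 and 22269 to 47708 after SP300, against 632 to 2050 in controls, a difference of -0.14 (-0.65 to 0.37). Cxcl2 differed by 0.40 (-0.33 to 1.14), and Cxcl9, a T cell attractant induced by interferon gamma, by -0.19 (-0.63 to 0.25). Cxcl10, induced by all interferons, read 548 to 1568 and 262 to 706, and its difference of 1.13 (0.39 to 1.87) missed the threshold (adjusted p = 0.0544).

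Of 29 cytokines and receptors 4 were called, all higher after SP70, where 4.72% of all genes were called higher. Il1rn, the antagonist of the interleukin-1 receptor, read 5867, 4727, 4464, 3810 and 3786 after SP70 and 1067, 1574, 2029, 1849 and 1481 after SP300, with controls at 111 to 195. It was 2.86-fold higher without overlap (1.51 ± 0.33, adjusted p = 0.00372). Il6st, the shared gp130 receptor of the interleukin-6 family, read 10537 to 11876 against 5506 to 6722 (0.84 ± 0.19, adjusted p = 0.00594). Ifngr2, a chain of the interferon gamma receptor, differed by 0.78 ± 0.18 (adjusted p = 0.00719). Lif, a cytokine that signals through gp130, differed by 0.85 ± 0.26 (adjusted p = 0.0374). Its adjusted p was 0.0652 after quantile normalization, 0.0512 with centred arrays and up to 0.123 without SP300 200 mg/kg replicate 4. The sets overlapped for Lif, and 1 SP70 mouse and 4 SP300 mice lay under the filter level. With such signals raised to that level, its fold was at least 1.32.

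Of 23 acute phase proteins, 19 rose against control after SP70 and 18 after SP300, where 18.7% and 12.6% of all genes rose. Between the sets 3 were called, all higher after SP70 (4.72% of all genes were). They were Il1rn and Cd14, above, and Orm1, a plasma carrier protein, at 0.20 ± 0.06 (adjusted p = 0.0399). The Orm1 difference was 0.06 under either other scaling. Saa3, a serum amyloid made in liver and macrophages, read 84926 to 95211 after SP70, 68768 to 81842 after SP300 and 884 to 1578 in controls. Its sets did not overlap, yet the difference of 0.24 (-0.01 to 0.49) missed the threshold. Saa1, Saa2 and Lcn2 differed by 0.18, 0.19 and 0.08, none of them called, although the sets did not overlap for Saa1 and Saa2. In a fit of the 10 arrays alone Saa1, Saa2 and Saa3 were called (limma, adjusted p = 0.0112, 0.0221 and 0.0191). All 23 differences were positive, with a median of 0.19 (0.06 after quantile normalization, 0.05 with centred arrays). For 11 of the 23 every SP70 mouse lay above every SP300 mouse, beside 5.80% of all genes. The table holds no saturation calls, and its highest value is 136014.

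**Figure D4:**
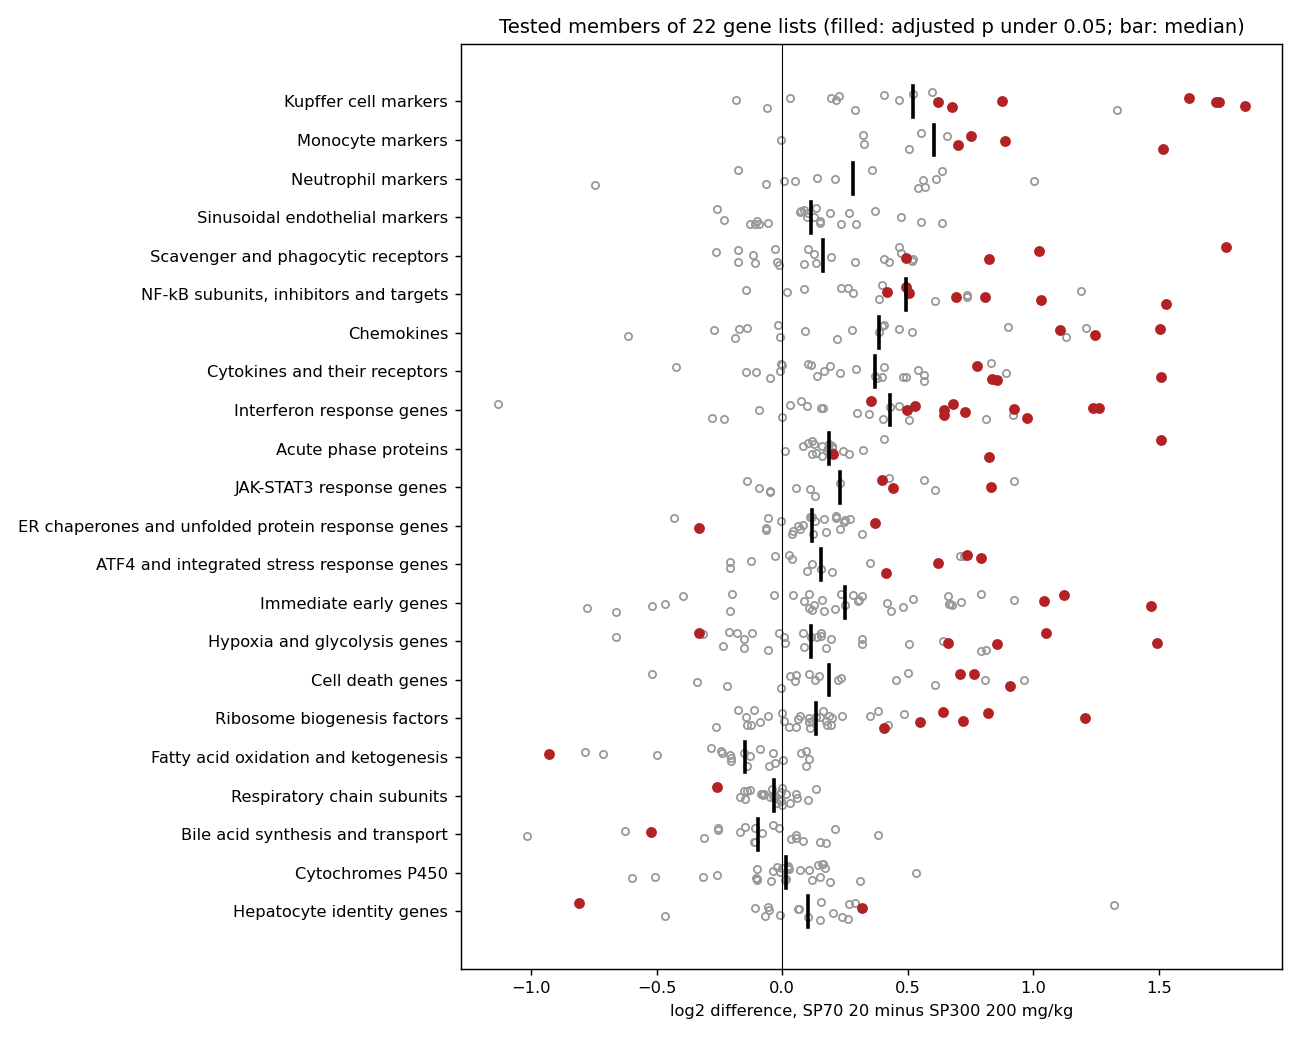
Each point is 1 tested member of 22 gene lists, with its log2 difference SP70 20 minus SP300 200 mg/kg on the horizontal axis, filled red where the adjusted p is under 0.05, and a bar at the list's median. Filled points lie to the right of 0 in the monocyte, NF-kB, chemokine and interferon lists, and single ones to the left in the fatty acid oxidation, respiratory chain and bile acid lists.

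Of 29 interferon response genes, 11 were called, all higher after SP70 (4.72% of all genes were), with a median of 0.43 beside 0.03 over all genes. The differences ran from -1.13, in a member that was not called, to 1.26, with 24 of the 29 above 0. Quantile normalization gave 10 calls and centring 7, all higher. To show what these genes have upstream, the 250 bases before the start in RefSeq's mouse promoters (build GRCm38.p6) were searched on both strands for an ISRE core, GAAA, any 2 bases and GAAA. Of all 32851 such windows, 2.98% held it. Of the 22 list members with a window, 11 held it, among them 7 of the 8 that were called and 4 of the 14 that were not. This split was not tested. Not all called members had a window, the list was chosen with earlier results of these data known, and related genes are not independent. The sequences of Igtp and Irgm2 below are nearly alike around the match. A match is a description of these letters, not a site. The last 150 bases before the start of 4 called genes follow, 5′ to 3′ on the gene's strand, with matches in capitals: Ifit1 (chr19:34640739-34640888, plus strand), Rsad2 (chr12:26456453-26456602, minus strand), Igtp (chr11:58199406-58199555, plus strand) and Irgm2 (chr11:58214827-58214976, plus strand).
Ifit1: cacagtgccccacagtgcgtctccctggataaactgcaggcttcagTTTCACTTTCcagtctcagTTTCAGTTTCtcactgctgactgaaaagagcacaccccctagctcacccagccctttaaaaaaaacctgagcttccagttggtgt
Rsad2: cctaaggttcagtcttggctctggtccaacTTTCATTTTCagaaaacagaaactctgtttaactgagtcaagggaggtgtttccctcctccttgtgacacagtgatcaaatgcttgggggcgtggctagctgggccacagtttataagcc
Igtp: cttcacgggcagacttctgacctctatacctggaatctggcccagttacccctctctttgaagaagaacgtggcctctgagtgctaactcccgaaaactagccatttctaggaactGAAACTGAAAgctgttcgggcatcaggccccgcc
Irgm2: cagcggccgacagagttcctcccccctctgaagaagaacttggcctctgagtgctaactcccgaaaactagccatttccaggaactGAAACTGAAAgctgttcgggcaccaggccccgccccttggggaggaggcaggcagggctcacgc

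Ifit1, which binds foreign RNA, carries 2 matches there. It read 2049, 2178, 1818, 1275 and 1248 after SP70 and 770, 599, 721, 535 and 940 after SP300, with controls at 565 to 968. The SP300 mice thus lay within or beside the control range, and all SP70 mice above it. The difference was 1.24 ± 0.21, a 2.38-fold higher signal (adjusted p = 0.000427).

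Rsad2, the antiviral enzyme viperin, read 4151, 3674, 3521, 2086 and 2671 after SP70 and 1345, 991, 1526, 1216 and 1484 after SP300, with controls at 1313 to 1828. It was 2.41-fold higher without overlap (1.26 ± 0.23, adjusted p = 0.000688), and its 2 other probe sets gave 1.60 and 1.18, both called. Against control it rose by 0.97 after SP70, while after SP300 the difference was -0.29 (adjusted p = 0.362).

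Called members include the immunity-related GTPases Igtp, Irgm1 and Irgm2, which act on vacuoles holding microbes. Igtp read 9783 to 15828 after SP70 and 4963 to 7378 after SP300 (0.92 ± 0.17, adjusted p = 0.000902), and Irgm1 6467 to 9046 against 4406 to 5569 (0.68 ± 0.14, adjusted p = 0.00163). Irgm2 read 4982, 3516, 3004, 2839 and 2529 after SP70 and 1183, 1638, 2212, 1723 and 1708 after SP300, a difference of 0.98 ± 0.17 (adjusted p = 0.000502). Its controls lay at 3179 to 4339, so Irgm2 had fallen by 1.10 after SP300 and did not pass the test against control after SP70. Probe sets of such related genes can share targets, which makes their separate values uncertain.

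Ifit3, Irf9, Stat2, Rtp4, Iigp1 and Gbp6 were called at 0.35 to 0.73. Stat2 and Irf9, the partners that bind the ISRE, differed by 0.53 ± 0.13 and 0.50 ± 0.14 (adjusted p = 0.0119 and 0.0234). Ifit3, Irf9, Iigp1 and Gbp6 were not called with centred arrays (adjusted p = 0.066, 0.051, 0.12 and 0.088), and Ifit3 not after quantile normalization. With a mouse left out, Ifit3 reached 0.115 (without SP300 200 mg/kg replicate 2), Irf9 0.0725 (without SP70 20 mg/kg replicate 1) and Gbp6 0.11 (without SP70 20 mg/kg replicate 4). Members that did not separate the sets include Gbp2, a GTPase that rose by 5.06 and 4.66 against control (difference 0.40, -0.05 to 0.86), and Psmb8, an immunoproteasome subunit that rose by 0.85 and 0.81 (difference 0.03, -0.20 to 0.26). Usp18, which removes ISG15, differed by 0.16 (-0.30 to 0.62).

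**Figure D5:**
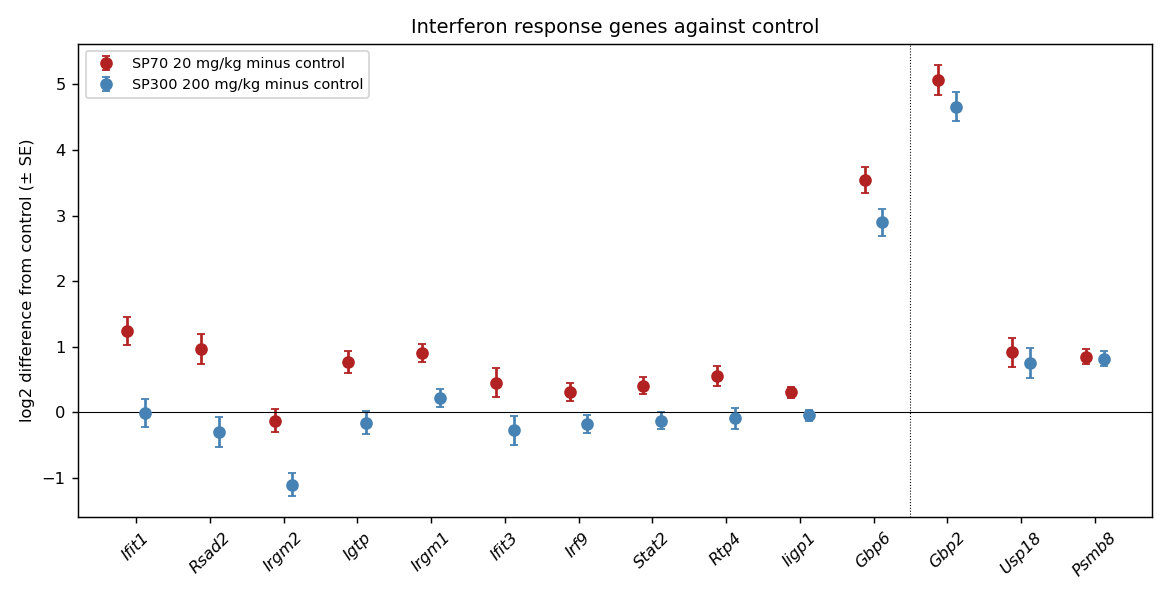
Points give the log2 difference from control (5 mice) with its standard error for 11 called interferon response genes, left of the dotted line, and 3 that were not called, after SP70 20 mg/kg (red) and SP300 200 mg/kg (blue), which share the control mice. For Ifit1 the values are 1.24 and 0.00, for Irgm2 -0.13 and -1.10, and for Psmb8 0.85 and 0.81.

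Most genes of the unfolded protein response of the ER rose against control in both sets and gave 2 calls between them. Of 25 ER chaperones and related genes, 20 and 21 rose against control (18.7% and 12.6% of all genes). Between the sets 1 was called higher and 1 lower, a share near the 6.53% of all genes that were called. The ERSE letters, CCAAT (which is also the CCAAT box), any 9 bases and CCACG, were in 0.113% of the 32851 windows and in 10 of the 21 members with a window, of which the 1 called between the sets did not hold them. The same 150 bases are shown for Hspa5 (chr2:34771940-34772089, plus strand) and Creld2 (chr15:88819496-88819645, plus strand), as the counterpart of the ISRE windows above.
Hspa5: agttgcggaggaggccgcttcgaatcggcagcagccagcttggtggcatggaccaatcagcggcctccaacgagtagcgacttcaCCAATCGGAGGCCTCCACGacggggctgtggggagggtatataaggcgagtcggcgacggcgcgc
Creld2: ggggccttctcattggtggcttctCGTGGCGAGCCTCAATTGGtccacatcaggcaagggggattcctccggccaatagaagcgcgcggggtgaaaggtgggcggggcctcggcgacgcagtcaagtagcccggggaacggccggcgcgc

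Hspa5, the chaperone BiP, read 69203, 74718, 65186, 72079 and 75519 after SP70 and 64693, 61471, 60343, 65389 and 65356 after SP300, from 31324 to 45971 in controls. The sets overlapped at 1 mouse, and the difference of 0.17 (-0.05 to 0.39) was not called. Creld2, a secreted ER stress protein, read 25098 to 32775 and 20351 to 27456 against 2695 to 7609 in controls, a difference of 0.18 (-0.38 to 0.73). Hsp90b1, Manf and Sdf2l1, which help to fold or protect secreted proteins, differed by 0.11 (-0.09 to 0.31), 0.12 (-0.26 to 0.51) and 0.21 (-0.32 to 0.75).

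The 2 called were Herpud1, a degradation factor, at 0.37 ± 0.10 (adjusted p = 0.0233), and the sensor Atf6, which was lower after SP70 at -0.33 ± 0.09 (adjusted p = 0.0283). Herpud1 was not called with centred arrays (0.23, adjusted p = 0.121). The other 2 probe sets of Atf6 gave 0.14 and 0.22, so that the mean of its probe sets turned to 0.01. Without 1 mouse they reached 0.0619 (Herpud1, without SP70 20 mg/kg replicate 5) and 0.106 (Atf6, without SP70 20 mg/kg replicate 2).

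On the ATF4 branch of the stress response, 4 of 17 genes were called higher after SP70, where 4.72% of all genes were. After quantile normalization 3 were, without Chac1, and with centred arrays 2 were higher, without Chac1 and Cebpg, and 1 other gene lower. Atf4, the transcription factor itself, read 8917, 9419, 14564, 11318 and 11128 after SP70 and 7444, 7686, 6003, 6334 and 8246 after SP300, without overlap (0.62 ± 0.16, adjusted p = 0.0179). Ddit3, the death-linked factor CHOP, differed by 0.79 ± 0.21 (adjusted p = 0.0179), Chac1, which degrades glutathione, by 0.74 ± 0.22 (adjusted p = 0.0362) and Cebpg, a partner of ATF4, by 0.41 ± 0.11 (adjusted p = 0.022). Their adjusted p rose to 0.0585 for Atf4 (without SP70 20 mg/kg replicate 3), 0.0638 for Ddit3 (without SP70 20 mg/kg replicate 5), 0.108 for Chac1 (without SP70 20 mg/kg replicate 2) and 0.0808 for Cebpg (without SP300 200 mg/kg replicate 3).

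Cell death genes gave 3 calls of 20 under each scaling, all higher after SP70, where 4.72% of all genes were called higher in the deposited values. Bcl2l11, the death activator BIM, read 1090, 873, 931, 1034 and 923 after SP70 and 528, 483, 465, 574 and 503 after SP300, with controls at 376 to 463. The sets lay well apart (0.91 ± 0.13, 1.90-fold, adjusted p = 5.09e-05). Bid, which links death receptors to mitochondria, differed by 0.77 ± 0.12 (adjusted p = 0.000134) and Birc2, an inhibitor of apoptosis and NF-kB regulator, by 0.71 ± 0.16 (adjusted p = 0.00498). Of 20 NRF2 targets, 3 were called higher (4.72% of all genes were), led by Txnrd1, a thioredoxin reductase (0.41 ± 0.09, adjusted p = 0.00544). With centred arrays 1 was higher and 2 lower.

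Of 37 immediate early genes 3 were called, all higher after SP70, and 31 hypoxia and glycolysis genes gave 4 higher and 1 lower, where 6.53% of all genes were called. With centred arrays the early genes gave 3 higher and 1 lower, and the hypoxia and glycolysis genes 4 higher and 3 lower. Jund, an AP-1 subunit, read 6877 to 11280 after SP70 and 4036 to 5241 after SP300 (1.04 ± 0.21, adjusted p = 0.00202). Egr1, the classic early response factor, did not separate the sets (-0.21, -0.75 to 0.34), and rose by 1.99 and 2.19 against control. Pfkfb3, which speeds glycolysis, read 1906, 1518, 402, 1137 and 819 after SP70 and 303, 570, 249, 300 and 426 after SP300, overlapping at 1 SP70 mouse. Its difference was 1.49 ± 0.33 (adjusted p = 0.00533), and it had fallen by 1.63 against control after SP300 and not passed the test after SP70.

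Hk2, a hexokinase, and Kdm3a, a histone demethylase induced by hypoxia, were higher after SP70 by 0.85 ± 0.20 and 0.66 ± 0.15 (adjusted p = 0.00642 and 0.00533). Tpi1, a glycolytic enzyme, was lower by 0.33 (adjusted p = 0.0156). Per1, a clock gene that glucocorticoids also induce, read 1199 to 1447 after SP70 and 472 to 825 after SP300 (1.04 ± 0.17, adjusted p = 0.000305).

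Ribosome biogenesis factors gave 6 calls of 37, all higher after SP70 (4.72% of all genes were), but 4 higher and 4 lower with centred arrays. Nop58, a core protein of the particles that methylate ribosomal RNA, read 5127, 6529, 6177, 6617 and 6781 after SP70 and 2027, 3420, 2217, 2961 and 3089 after SP300. It was 2.31-fold higher without overlap (1.20 ± 0.19, adjusted p = 0.000216). Nolc1, a nucleolar chaperone, and Wdr43, a factor of the small subunit, differed by 0.82 ± 0.19 and 0.64 ± 0.13 (adjusted p = 0.00642 and 0.00267).

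Among called genes whose mice did not overlap, the largest difference was in a dim gene. Atoh8, a transcription factor, read 264, 263, 489, 624 and 564 after SP70 and 60, 66.7, 86.4, 186 and 39.8 after SP300, beside 37.3 to 239 in controls. Its difference was 2.24 ± 0.53 (adjusted p = 0.00771), at least 2.44-fold with signals under 165 raised to that level. Tnfrsf11a, the receptor RANK, N4bp2l2, Rundc3b and Zfp458 differed by 1.53 to 1.73, each with SP300 mice under 165. N4bp2l2 reached an adjusted p of 0.0544 without SP300 200 mg/kg replicate 2.

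Ackr1, a decoy receptor that binds chemokines without signalling, was well above that level. It read 1829, 1967, 1331, 1618 and 1500 after SP70 and 276, 533, 616, 603 and 933 after SP300, beside 392 to 753 in controls. It was 2.96-fold higher (1.54 ± 0.33, adjusted p = 0.00308).

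Some large differences rested on 1 probe set of a gene. Taf7, a subunit of the general transcription factor TFIID, differed by 1.59 ± 0.26 (adjusted p = 0.000221), yet its other probe set gave 0.39 and was not called. Examples chosen after their values were seen are Eif2ak2, the RNA-sensing kinase PKR, at 1.42 against 0.20 and 0.18 for its other probe sets, and Rb1cc1, an autophagy factor, at 1.31 against 0.10. Zc3h15 differed by 1.30, 1.34 and 1.48 in 3 probe sets and by 0.10 in the fourth. Of the 598 genes higher after SP70, 373 had another kept probe set, and for 164 of them (44.0%) another was called in the same direction. Of the 230 lower genes, 126 had another, and 18 (14.3%) agreed in this way.

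Probe sets that were not the brightest of their gene were also fitted. In a fit of all 26864 kept probe sets, 8.86% were called higher and 1.66% lower. The shares were 5.57% and 2.28% for the brightest probe set of each gene, and 13.6% and 1.10% for the 9982 other probe sets of genes. Their median signal after SP300 was 878 and 398. The difference between the classes was not tested.

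Genes lower after SP70 20 mg/kg were led by Tsc22d1, a transcription regulator that responds to TGF-beta. It read 4450, 3038, 4930, 5305 and 4563 after SP70 and 9618, 12653, 21661, 17865 and 16472 after SP300, beside 10579 to 28744 in controls. The sets lay far apart, with a 3.44-fold lower signal after SP70 (-1.78 ± 0.28, adjusted p = 0.000153). Against control Tsc22d1 fell by 2.22 after SP70, and by an amount that did not pass the test after SP300. Of its 4 other probe sets, 3 were called lower as well, and a dim one was not.

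Hjv, the BMP coreceptor hemojuvelin, read 1764, 1009, 2006, 1595 and 1989 after SP70 and 3043, 2661, 3757, 3035 and 2971 after SP300, beside 4728 to 6591 in controls. It was 1.89-fold lower without overlap (-0.91 ± 0.15, adjusted p = 0.000233), and its second probe set gave -0.86. Hamp, the iron hormone hepcidin that hemojuvelin helps to induce, differed by 0.28 (0.00 to 0.56) and was not called. Its adjusted p was 0.228, and 0.0421 in a limma fit of the 10 arrays alone. No other member of the 18 iron genes was called.

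Clec2d, a ligand of natural killer cell receptors, read 2278 to 3693 after SP70 and 4104 to 9581 after SP300, from 11395 to 17980 in controls, and was 2.01-fold lower (SE 0.22 in log2, adjusted p = 0.0036). Sucnr1, the succinate receptor, fell from 1088 to 3262 in controls to 249 to 347 after SP300 and 76.8 to 188 after SP70 (-0.96 ± 0.26, adjusted p = 0.0207, up to 0.0867 without SP70 20 mg/kg replicate 4). Cc2d1b differed by -0.90 ± 0.21 (adjusted p = 0.00727). Rfx3, a ciliary regulator, Slc16a5, a transporter, and Ttll1, a tubulin ligase, were lower by 0.92 to 1.20 with adjusted p-values of 0.0258 to 0.049. They kept the call in 2, 3 and 10 of the 15 fits with a mouse left out, and reached 0.201 (Rfx3, without SP70 20 mg/kg replicate 5), 0.109 (Slc16a5, without SP300 200 mg/kg replicate 3) and 0.0802 (Ttll1, without SP70 20 mg/kg replicate 2).

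Of 19 hepatocyte identity genes, 1 was called higher and 1 lower, and of 22 bile acid genes 1 was lower, where 6.53% of all genes were called. Of 22 genes of fatty acid oxidation 1 was called, Acot2, a mitochondrial thioesterase, which read 978 to 1903 after SP70 and 1783 to 3440 after SP300 (-0.93 ± 0.19, adjusted p = 0.0017). It rose by 0.72 against control after SP300 and did not pass the test after SP70. With centred arrays 7 of the 22 were called lower, and 11 of 26 respiratory chain subunits where the deposited values gave 1. Nr1i3, the xenobiotic receptor CAR, read 2123 to 3947 after SP70 and 3253 to 5981 after SP300, from 6304 to 9484 in controls (-0.81 ± 0.17, adjusted p = 0.00345). Abcg5, which exports sterols into bile, differed by -0.52 ± 0.16 (adjusted p = 0.0416, up to 0.111 without SP70 20 mg/kg replicate 5).

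None of 29 cytochrome P450 genes, 15 genes of fatty acid synthesis or 22 cell cycle genes was called, with list medians of 0.02, -0.04 and -0.04. By limma's unadjusted p under 0.05 the counts were 4, 0 and 2. In 13 of the 42 lists no member was called. The summed signal of 19 hepatocyte identity genes was 691952 to 759703 after SP70 and 616513 to 722724 after SP300, beside 722595 to 773382 in controls. Cholesterol synthesis genes had a median of 0.38 with 1 call of 21, higher after SP70, where 4.72% of all genes were called higher. After quantile normalization 0 were called, and with centred arrays 0 were higher and 1 was lower. Msmo1 and Sqle, enzymes of that pathway, differed by 1.11 (0.27 to 1.95) and 1.23 (0.23 to 2.23) with adjusted p-values of 0.104 and 0.128.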

How the data were processed

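RNA from 35 mouse livers was measured on 1 array each. The authors deposited an intensity per probe set, made with MAS5 per the submitters' processing notes (version and scaling not given in the sources used here). Of 45101 probe sets, 34945 have 1 gene. A probe set was used if 5 or more arrays exceeded the table's median value, 165, and the brightest one per gene was taken, giving 12678 genes. After log2(signal + 12.5), all 7 groups were fitted in limma 3.58.1 (R 4.3.3), with a trended variance and no covariate. Errors are moderated SEs. The fit was tested on simulated data, where among 12678 genes of this comparison 54% of those higher by 0.5 in log2, 76% of those higher by 1 and 70% of those lower by 1 were recovered. There were 7 false calls. The simulated noise was normal and independent, with no shift between arrays, so the simulation cannot show how array scaling affects the calls. Named genes are the 12 highest and 12 lowest differences among called genes without overlap (5 with clone or locus names are not named), up to 4 members per list by adjusted p, and further members where a list is described. Members and lists were chosen with earlier results of these data known. Gene names are the platform's, and 34741 probe sets matched RefSeq. Alternatives were 2 pseudocounts, 2 filters, 2 scalings, the mean of probe sets, only 10 arrays, a replicate block and each mouse left out. No files were left out. The arrays' number limits the precision, and the labels' biological replicates were taken as separate mice.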

Additional observations from a re-analysis of the deposited data

Results flagged for a closer look

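In 14 of 222 gene and group pairs, 1 mouse lay apart from the other 4 by more than 0.71 of the group's range on the log2 scale (Dixon's test for 5 samples), where chance marks about 1 in 20 such groups. Among Kupffer cell markers, SP70 20 mg/kg replicate 5 was low for C1qc (0.876 of the range, 16.5 against 151 to 196) and Clec4f (0.834, 19.5 against 178 to 258). SP70 20 mg/kg replicate 3 was low for Cd163 (0.858) and Ccl7 (0.793, 242 against 491 to 588) and high for Abcg5 (0.717). SP300 200 mg/kg replicate 2 was low for Cd5l (0.849, 56.8 against 135 to 156) and Igtp (0.848, 4963 against 6945 to 7378). SP300 200 mg/kg replicate 4 was high for Spic (0.823, 243 against 75.6 to 93.8), and replicate 5 of that group low for Vsig4 (0.746). The others were Ifngr2 (0.761) and Sucnr1 (0.748), low in SP70 20 mg/kg replicate 4, Kdr (0.75), low in SP300 200 mg/kg replicate 1, Olr1 (0.752), high in SP70 20 mg/kg replicate 1, and Rfx3 (0.743), low in SP70 20 mg/kg replicate 5.

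There were 3588 kept probe sets with no named gene, which no gene comparison above uses. Of these, 280 (7.80%) were called higher after SP70 20 mg/kg than after SP300 200 mg/kg. Another 29 (0.808%) were called lower (limma, adjusted over all 26864 kept probe sets). Both shares lay under those of all kept probe sets, 8.86% and 1.66%. With centred arrays the counts were 185 higher and 139 lower, and after quantile normalization 175 and 90.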

How the results depend on the processing

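Against control, both counts of called genes stayed within 1.5 times under every alternative run. Between the sets, 828 called genes became 1297 after quantile normalization, 1862 with centred arrays and 1249 when a gene's probe sets were averaged. The 598 higher genes became 347 with centred arrays and 1049 with the mean of probe sets, and the 230 lower genes 847 (quantile) and 1515 (centred). Genes at least 2-fold higher went from 80 to 51 (quantile) and 52 (centred), and those at least 2-fold lower from 18 to 35, 42 and, with a filter on at least 20 arrays, 10. Leaving out 1 mouse of either set gave 484 to 901 called genes, lowest without SP300 200 mg/kg replicate 1, with 358 to 697 higher, 106 to 269 lower, 61 to 103 at least 2-fold higher and 4 to 20 at least 2-fold lower. It gave 4652 to 5045 called against control for SP70 and 3225 to 3866 for SP300. Leaving out a control mouse, an alternative chosen after seeing the data, gave 791 to 836 called between the sets. The mean of probe sets turned Atf6 from -0.33 to 0.0083 and ended the calls of Ifngr2, Jund, Nfkbib and Ttll1. A fit of the 10 arrays alone ended those of C1qc, Ccl20, Clec4f, Icam1, Lif, Olr1, Rfx3 and Spic. It also called 5 named genes that the main fit did not, Saa1, Saa2, Saa3, Hamp and Cxcl10. A pseudocount of 1 kept 78 of the 81 named calls and no filter kept 70. Replicate numbers did not pair the mice (correlation of deviations -0.0463 to 0.0351 for the 5 same-numbered pairs). With the number as a replicate block 810 genes were called, 576 higher and 234 lower, and of the 81 only Rfx3 lost its call. Array signal limits the precision of genes under 165, and the cause of these changes was not tested.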
